A study of Mus musculus with 4 samples.

Results

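Vascular, choroid plexus, ependymal and meningeal genes are the genes by which the vessels, the ventricular linings and the coverings of the brain can be followed in whole-brain RNA. A list of 38 such genes was matched by exact gene symbol to the annotation of the Mouse Gene 1.0 ST array, and 36 of them were found, each with 1 probe set, among 35556 probe sets in all. Enpp2 and Prlr of the choroid plexus list were not matched and were not analysed here. The 36 genes comprise 11 of endothelial cells and pericytes, 12 of the choroid plexus, 6 of ependymal cells and 7 of the meninges. The match used gene names and no measured value, but the list was chosen with earlier results of these data known.

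The ethanol group is C57BL/6J male mice that were injected subcutaneously as pups with ethanol in saline, as 2 doses of 2.5 g/kg given 2 hours apart on each of postnatal days 4 and 7, a period that stands for the third trimester of human gestation. The control group is male littermates injected with saline alone on those days. Brains were taken in adulthood, on postnatal day 60 by the sample labels and at a later age by the methods, and no other allele or agent is named for either group. There were 2 arrays per group, each with the combined whole-brain RNA of 3 males from different litters, called ethanol 2, ethanol 4, control 1 and control 3. For ethanol 4 and control 1 the labels give a treatment entry that is the opposite of the title and source name, which the groups here follow. Nothing in the labels tells which pools hold littermates of each other.

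In the brain, endothelial cells joined by tight junctions form the blood-brain barrier, and pericytes wrap the capillaries they line. The choroid plexus is a secretory epithelium around leaky capillaries that makes cerebrospinal fluid and exports transthyretin. Ependymal cells line the ventricles and carry the motile cilia that move this fluid, and the meninges are collagen-rich fibroblast layers that enclose it. Choroid plexus and meninges are lost or kept in part when a brain is removed from the skull, so their transcripts can differ between pools with the dissection.

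Signals are log2 values as the authors deposited them. The median signal was 6.33 on ethanol 2 and 6.38 on ethanol 4, against 6.61 on control 1 and 6.51 on control 3, and the median difference over all probe sets (ethanol minus control) was -0.146. A further quantile normalization of the 4 arrays brought this median to -0.0042, and most group differences below are therefore given in both forms. Differences are as deposited unless a value after this normalization is named, and differences between the pools of a group are as deposited. Differences were tested with limma (moderated, two-sided), and a gene is called past the limits where it differed by at least 1.2-fold (0.263 on the log2 scale) with an unadjusted p under 0.05, the thresholds in the study's methods. No member passed an adjusted p of 0.05 in limma in either form, and 5 members as deposited and 2 after normalization had an unadjusted p under 0.05. With 2 arrays against 2, an exact permutation test of a single gene cannot go below 0.333. The pituitary transcript Gh had a signal of 6.53 on ethanol 2, against 12.26 on ethanol 4, 12.24 on control 1 and 12.19 on control 3, and Prl had 5.05 on ethanol 2, against 10.60, 10.21 and 10.10. Of 7 pituitary genes, Pomc had a lower signal past the limits in both forms. Markers of neurons were present on all arrays, with list medians of 11.79 and 11.82 on the ethanol arrays and 11.92 and 11.77 on the control arrays.

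As deposited, 5 of the 36 members were past the limits with lower signals on the ethanol arrays and none with higher ones. These were Pecam1, Tek, Kl, F5 and Dynlrb2. Over all probe sets, 20.1% were past the same limits, 17.9% lower and 2.23% higher, so the members' share was not above that of the whole table. After quantile normalization none of the 5 remained past the limits and Abcb1a was higher, where 5.71% of all probe sets were higher and 5.87% were lower. The median difference of the 36 members was -0.14 as deposited and -0.01 after normalization. The arrays of the groups did not overlap for 23 members as deposited, 21 of them lower and 2 higher in ethanol, where 52.7% of all probe sets were lower and 7.25% higher without overlap. After normalization 6 members were lower and 10 higher without overlap, where 48.9% of all probe sets did not overlap, 24.9% lower and 24% higher. In bulk RNA, fewer cells of a type and less RNA per cell cannot be told apart.

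**Figure D1:**
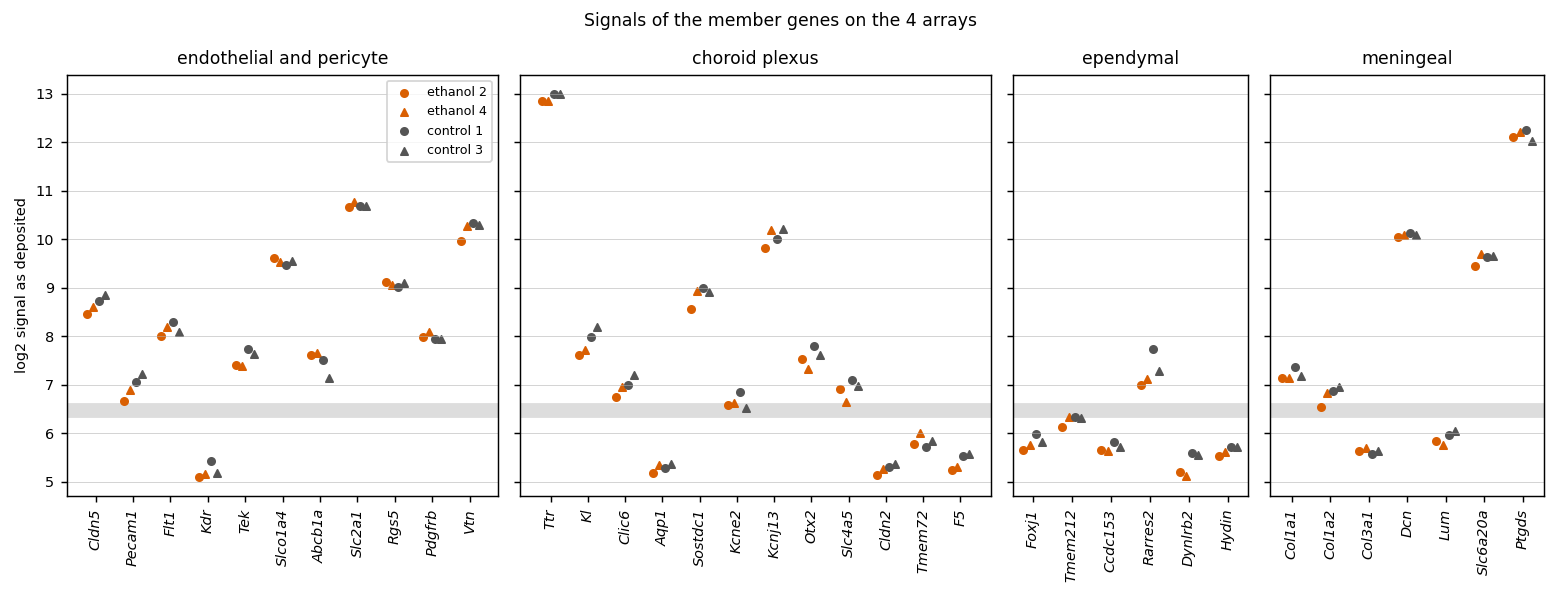
Log2 signal as deposited (vertical axis) of the 36 member genes (horizontal axis, by class) on ethanol 2, ethanol 4, control 1 and control 3, with 1 point per array and a grey band for the range of the 4 array medians, 6.33 to 6.61. The 4 points of a gene lie close together in all classes, and Rarres2, with 7.73 on control 1 and 6.99 on ethanol 2, has the widest spread.

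Endothelial genes were divided between lower and higher signals. Pecam1, the adhesion molecule of endothelial junctions, had signals of 6.67 and 6.89 on the ethanol arrays, against 7.06 and 7.23 on the control arrays. Tek, the angiopoietin receptor that keeps vessels quiescent, had 7.41 and 7.39 on the ethanol arrays and 7.73 and 7.64 on the control arrays. In both genes the ethanol arrays lay below both control arrays. Pecam1 differed by -0.37 (standard error 0.12, limma, unadjusted p = 0.0351, adjusted p = 0.204) and Tek by -0.29 (standard error 0.09, unadjusted p = 0.0253, adjusted p = 0.191). After quantile normalization they were at -0.16 and -0.11, short of the limits, and the Pecam1 signals of the groups overlapped. As deposited, Pecam1 was also short of the limits without ethanol 2 (-0.25) and without control 3 (-0.28), and Tek without ethanol 2 (-0.30), ethanol 4 (-0.28) or control 1 (-0.24). With the arrays regrouped by treatment entry, the direction of Tek turned, to 0.0567.

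The receptors of vascular endothelial growth factor, Flt1 and Kdr, showed smaller differences. Flt1, which binds the factor tightly with little signalling, had 8.01 and 8.20 on the ethanol arrays, against 8.28 and 8.08 on the control arrays. The groups overlapped, with a difference of -0.08 as deposited and 0.05 after normalization. Kdr, the main signalling receptor, lay below the array medians, with 5.10 and 5.17 on the ethanol arrays and 5.42 and 5.19 on the control arrays (-0.17, and -0.02 after normalization). Cldn5, the claudin that seals the blood-brain barrier, had 8.45 and 8.60 on the ethanol arrays, against 8.72 and 8.84 on the control arrays. Its difference of -0.26 (standard error 0.10, limma, adjusted p = 0.235) was just short of the fold limit and was -0.13 after normalization, where the groups overlapped.

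None of the 3 member genes for transporters of the barrier had a lower signal past the limits. Abcb1a, the efflux pump P-glycoprotein, had 7.62 and 7.65 on the ethanol arrays, against 7.50 and 7.15 on the control arrays, so both ethanol arrays were above both controls and the controls were apart by 0.35. As deposited it differed by 0.31 (standard error 0.14, limma, unadjusted p = 0.0858, adjusted p = 0.272), past the fold limit and not past the p limit. After quantile normalization it differed by 0.49 (standard error 0.12, unadjusted p = 0.01, adjusted p = 0.274), and it was the single member past the limits in that form. It stayed past them with any 1 array left out of the normalized values, at 0.36 without control 3 to 0.62 without control 1, and as deposited it passed them only without control 1 (0.49). Under the treatment entry as the grouping, its normalized difference was 0.12, short of the limits. The glucose transporter Slc2a1 had 10.67 and 10.76 on the ethanol arrays and 10.68 and 10.69 on the control arrays. It differed by 0.03, and by 0.08 after normalization, where both ethanol arrays were above both controls. The organic anion transporter Slco1a4 had 9.61 and 9.54 on the ethanol arrays, against 9.47 and 9.55 on the control arrays (0.07, and 0.17 after normalization, short of the limits in both forms).

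Among the pericyte genes none was past the limits in either form. Rgs5, a regulator of G-protein signalling, had 9.11 and 9.06 on the ethanol arrays, against 9.02 and 9.09 on the control arrays. It differed by 0.03, with overlap, and by 0.15 after normalization, where both ethanol arrays were above both controls. Pdgfrb, the receptor through which endothelial cells recruit pericytes, had 7.98 and 8.09 on the ethanol arrays and 7.95 and 7.94 on the control arrays, above both controls by small amounts. Its difference was 0.09 as deposited and 0.24 after normalization (limma, unadjusted p = 0.0454, adjusted p = 0.361), where it passed the p limit and not the fold limit. Vtn, the matrix protein vitronectin, had 9.96 on ethanol 2 and 10.27 on ethanol 4, against 10.34 on control 1 and 10.30 on control 3. Only ethanol 2 stood apart. As deposited the difference of Vtn was -0.21, with -0.36 without ethanol 4 and -0.05 without ethanol 2. After normalization it was -0.13, with -0.27 without ethanol 4 and 0.01 without ethanol 2. Over the 11 genes of vessels the median difference was -0.08 as deposited and 0.05 after normalization, and without ethanol 2 it was 0.0051 as deposited. Their count past the limits was 2 lower and 0 higher as deposited, and 0 lower and 1 higher after normalization.

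A further list of 34 endothelial genes had 31 members on the arrays. Of these, 2 had lower signals past the limits as deposited, against 17.9% of all probe sets, and both were also lower after normalization, where 2 others were higher. Esam, an adhesion molecule of endothelial tight junctions, had 6.34 and 6.43 on the ethanol arrays, against 6.86 and 6.87 on the control arrays (-0.48, and -0.28 after normalization). Slc16a1, the monocarboxylate transporter that carries lactate and ketone bodies across the barrier, had 8.52 and 8.55 on the ethanol arrays, against 9.05 and 8.89 on the control arrays (-0.44, and -0.31 after normalization). In both the ethanol arrays were close to each other and below both controls. The adjusted p from limma was 0.165 for Esam and 0.171 for Slc16a1. The 2 genes that were higher after normalization were Lsr, of tricellular junctions, and Podxl, a sialomucin of the vessel surface. Of 17 further pericyte and smooth muscle genes, 2 were lower as deposited (Ndufa4l2 and Anpep) and neither was past the limits after normalization, where Cspg4 and P2ry14 were higher.

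The ligands and regulators of vessel growth, of which 21 of 22 were measured, had 5 members past the limits and lower as deposited and none higher, where 17.9% of all probe sets were lower. After normalization 1 was lower (Vegfc) and 1 was higher (Pdgfb), where 5.87% and 5.71% of all probe sets were. Vegfc, a growth factor best known for lymphatic vessels, had 5.36 and 5.29 on the ethanol arrays, against 6.05 and 5.84 on the control arrays. Its difference was -0.62 as deposited and -0.43 after normalization (limma, adjusted p = 0.165 and 0.267), at signals below the array medians. Notch1, the receptor that sorts endothelial tip and stalk cells, was at -0.36 as deposited and -0.20 after normalization. Of 12 genes of the vessel basement membrane and matrix, Lamb1, a laminin chain, had a lower signal past the limits as deposited (-0.32), and none was past them after normalization.

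**Figure D2:**
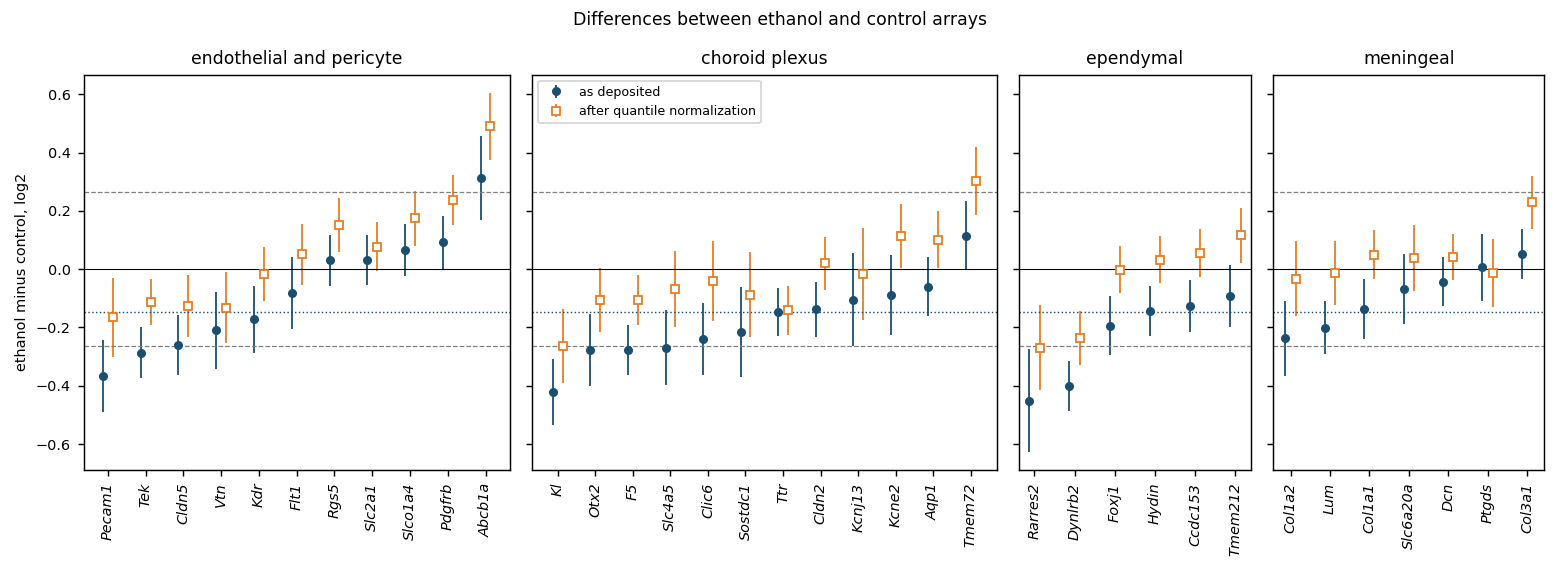
Difference between ethanol and control arrays on the log2 scale (vertical axis, ethanol minus control, with standard errors from limma) for the 36 genes by class, as deposited (filled circles) and after quantile normalization (open squares). Dashed lines mark the 1.2-fold limit, and the dotted line marks the median of all probe sets as deposited, -0.146. After normalization only the points of Abcb1a (0.49), Tmem72 (0.30), Kl (-0.26) and Rarres2 (-0.27) reach the fold limit, and only Abcb1a also passes the p limit.

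In the choroid plexus, Kl and F5 had lower signals past the limits as deposited, and the other 10 of 12 genes were short of them. Kl encodes klotho, the co-receptor of fibroblast growth factor 23 that is also shed into cerebrospinal fluid. Its signal was 7.61 and 7.73 on the ethanol arrays, against 7.98 and 8.20 on the control arrays. Both ethanol arrays were below both controls in either form of the data. Kl differed by -0.42 (standard error 0.11, limma, unadjusted p = 0.0164, adjusted p = 0.177), a ratio of 0.746 between ethanol and control. After normalization it was at -0.26 (standard error 0.13, unadjusted p = 0.0984, adjusted p = 0.437), past the fold limit and not the p limit. Without ethanol 2 (-0.37) or without control 3 (-0.32) it was short of the p limit as deposited. F5, coagulation factor V, had 5.24 and 5.31 on the ethanol arrays, against 5.53 and 5.57 on the control arrays, all below the array medians. The difference was -0.28 (standard error 0.09, limma, adjusted p = 0.193), or -0.11 once normalized, and as deposited it was short of the p limit whichever array was left out (-0.31 to -0.24).

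Transthyretin and the channels of the plexus varied little between the groups. Ttr, which carries thyroxine and retinol-binding protein, had 12.85 and 12.84 on the ethanol arrays, against 12.99 on control 1, with control 3 within 0.01 of it. The pools of each group were almost equal for Ttr, apart by 0.02 and by -0.01, while the groups were apart by -0.15 (standard error 0.08, limma, adjusted p = 0.330) and by -0.14 after normalization. Kcnj13, an inward-rectifying potassium channel of the apical membrane, had 9.82 on ethanol 2 and 10.18 on ethanol 4, against 10.00 on control 1 and 10.21 on control 3. Its ethanol arrays lay on either side of control 1. Kcne2, a potassium channel subunit that is also apical, had 6.58 and 6.63 on the ethanol arrays and 6.86 and 6.53 on the control arrays (-0.09, and 0.11 after normalization). Aqp1, the water channel of fluid secretion, had 5.18 and 5.35 on the ethanol arrays, against 5.28 and 5.37 on the control arrays, and the groups overlapped in both forms. Cldn2, the pore-forming claudin of the plexus, had 5.13 and 5.26 on the ethanol arrays, against 5.30 and 5.36 on the control arrays (-0.14, and 0.02 after normalization). The probe sets of Aqp1 and Cldn2 lay below the array medians on all 4 arrays.

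Of the remaining plexus genes, all but Tmem72 had negative differences in both forms, and none was past the limits. Otx2, the homeobox factor that specifies and maintains the plexus, had 7.53 and 7.33 on the ethanol arrays, against 7.80 and 7.61 on the control arrays. As deposited the groups were apart by -0.28 (standard error 0.12, limma, unadjusted p = 0.0779, adjusted p = 0.263), and after normalization they overlapped at -0.10. Slc4a5, an electrogenic bicarbonate transporter of the apical side, had 6.91 on ethanol 2 and 6.64 on ethanol 4, against 7.11 and 6.97 on the control arrays (-0.27, and -0.07 after normalization). Without ethanol 2 the difference of Slc4a5 was -0.40 as deposited and -0.22 after normalization. Without ethanol 4 these were -0.13 and 0.09. Clic6, a chloride channel protein, was at -0.24 as deposited and -0.04 after normalization. Tmem72, a transmembrane protein, was the one plexus gene with a positive difference as deposited, at 0.12, and was at 0.30 after normalization (limma, unadjusted p = 0.0536, adjusted p = 0.372). Its ethanol arrays were above both controls only after normalization.

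Sostdc1, a secreted inhibitor of BMP and Wnt signalling, showed a difference carried by a single pool. Its signal was 8.55 on ethanol 2 and 8.94 on ethanol 4, against a mean of 8.96 on the control arrays, which were apart by 0.08. The difference of -0.22 as deposited was -0.41 without ethanol 4 and -0.02 without ethanol 2. After normalization it was -0.09, with -0.27 without ethanol 4 and 0.10 without ethanol 2. With all 4 arrays it was short of the limits in both forms. Ethanol 2 is also the pool in which Gh and Prl were low, and 9 of the 12 plexus genes were lower on ethanol 2 than on ethanol 4, with a median of -0.12, against -0.04 over all probe sets. The other classes had similar shares, with 8 of 11 vessel, 4 of 6 ependymal and 5 of 7 meningeal genes lower on ethanol 2. Over all 36 members 26 were lower there, with a median of -0.09. The exceptions in the plexus were Ttr, Otx2 and Slc4a5, which were higher on ethanol 2 by 0.02, 0.19 and 0.27. The part of dissection in these differences was not tested. Over the 12 genes the median difference between the groups was -0.18 as deposited and -0.05 after normalization, and -0.11 as deposited without ethanol 2. There were 2 lower and 0 higher past the limits as deposited, and 0 in either direction after normalization. At an unadjusted p under 0.05 in limma there were 0 plexus genes after normalization.

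Further genes of the choroid plexus were measured for 39 of 40 names, and 4 had lower signals past the limits as deposited (Steap1, Abca4, Ace and Slc2a12), where 17.9% of all probe sets were lower. Ace, the angiotensin-converting enzyme, had 7.64 and 7.64 on the ethanol arrays, against 7.96 and 7.99 on the control arrays, the pools of each group almost equal. It was at -0.34 as deposited (limma, adjusted p = 0.173) and at -0.18 after normalization, short of the limits. Steap1, a metalloreductase, was past the limits in both forms (-0.50 and -0.32). After normalization Slc13a4, a sulfate transporter, and Slc29a4, a monoamine and nucleoside transporter, were higher (0.43 and 0.31), where 5.71% of all probe sets were higher and 5.87% lower. The median of the further plexus genes was -0.10 as deposited and 0.05 after normalization. Of 17 measured partners in retinoid, thyroid hormone, prolactin and klotho signalling, 3 were lower as deposited, among them the retinol-binding protein Rbp4 (-0.27), and none was past the limits after normalization.

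The 6 ependymal genes all had negative differences as deposited, with Dynlrb2 past the limits. Dynlrb2, a light chain of dynein motors, had 5.20 and 5.13 on the ethanol arrays, against 5.58 and 5.55 on the control arrays. The pools of each group were close and the groups did not overlap in either form. It differed by -0.40 (standard error 0.09, limma, unadjusted p = 0.00682, adjusted p = 0.171), the smallest p among the 36 members, at signals below the array medians. It was past the limits whichever array was left out, at -0.44 to -0.37, and after normalization it was at -0.24 (unadjusted p = 0.0554, adjusted p = 0.374). Under the treatment entry as the grouping its direction turned, to 0.0540. Rarres2, the chemoattractant chemerin, had 6.99 and 7.11 on the ethanol arrays, against 7.73 on control 1 and 7.27 on control 3. Here control 1 stood apart. The difference was -0.45 as deposited (standard error 0.18, limma, adjusted p = 0.233), not past the p limit, and -0.27 after normalization. As deposited it was -0.22 without control 1 and -0.68 without control 3. After normalization these were -0.09 and -0.45.

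The other ependymal genes had smaller differences, which after normalization were near 0 or had turned positive. Foxj1, the forkhead factor that directs the programme of motile cilia, had 5.67 and 5.76 on the ethanol arrays, against 5.98 and 5.83 on the control arrays. As deposited it was at -0.19, and after normalization the groups overlapped. Hydin, a protein of the central pair of the cilium, had 5.53 and 5.61 on the ethanol arrays and 5.72 and 5.71 on the control arrays (-0.14, and 0.03 after normalization). Ccdc153, a coiled-coil protein of the ciliary axoneme, was at -0.13 and turned to 0.06, and Tmem212 was at -0.09 and turned to 0.12. The median of the 6 was -0.17 as deposited and 0.02 after normalization, and 4 of the 6 had a mean signal under 6, below the array medians. There was 1 lower and 0 higher past the limits as deposited and 0 in either direction after normalization.

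Genes of motile cilia are known targets of the RFX factors, which work with Foxj1 and bind an imperfect inverted repeat called the X box. Promoter windows from RefSeq (build GRCm38.p6, 250 bases before to 50 bases after the start of the gene) were found for 26 of 34 members searched, and were scanned on both strands for GTTGCC, the core letters of an X box arm. This run of letters was present in 3 of the 4 ependymal genes with a window, in 3 of 9 choroid plexus genes, in 1 of 9 vessel genes and in 0 of 4 meningeal genes, against 14.1% of all genes with a window. The 250 bases before the start are shown for the 3 ependymal genes, 5′ to 3′ on the strand of the gene, with GTTGCC or its reverse complement in capitals, because they are the members of the class with the highest share of windows that hold these letters.
Dynlrb2, chr8:116504765-116505014, plus strand: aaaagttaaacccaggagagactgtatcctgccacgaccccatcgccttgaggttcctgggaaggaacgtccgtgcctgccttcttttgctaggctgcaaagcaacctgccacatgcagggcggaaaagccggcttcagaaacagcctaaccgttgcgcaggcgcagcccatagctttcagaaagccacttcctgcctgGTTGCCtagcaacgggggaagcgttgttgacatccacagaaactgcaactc
Ccdc153, chr9:44240427-44240676, plus strand: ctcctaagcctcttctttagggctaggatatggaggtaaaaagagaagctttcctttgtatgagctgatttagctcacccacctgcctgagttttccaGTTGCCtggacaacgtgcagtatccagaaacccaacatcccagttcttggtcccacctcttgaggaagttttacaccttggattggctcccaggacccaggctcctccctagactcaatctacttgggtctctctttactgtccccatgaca
Hydin, chr8:110266727-110266976, plus strand: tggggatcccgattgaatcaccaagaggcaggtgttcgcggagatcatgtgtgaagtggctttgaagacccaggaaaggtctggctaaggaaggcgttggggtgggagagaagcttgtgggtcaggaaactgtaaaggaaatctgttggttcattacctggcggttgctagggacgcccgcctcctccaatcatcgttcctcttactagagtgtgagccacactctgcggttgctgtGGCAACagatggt

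Counted from the start of the gene, the letters began at base -51 in Dynlrb2, at -152 in Ccdc153 and, on the opposite strand, at -13 in Hydin. Of these genes Dynlrb2 was past the limits as deposited, and Ccdc153 and Hydin were not. TAATCC, the core letters bound by Otx2, was present in the windows of 1 of 9 plexus genes with a window, which was Otx2 itself, and CAGGAAG, letters bound by ETS factors, in 0 of 9 vessel genes and 3 of 9 plexus genes, against 8.14% and 14.8% of all genes with a window. Among the further endothelial genes, CAGGAAG was present in the windows of 9 of 18 genes. None of the 3 runs of letters overlaps another in these windows. A match in a window describes its letters only.

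A wider set of motile cilia genes was also measured. Of 43 genes measured from 45 names, 10 had lower signals past the limits as deposited and none was higher. Over all probe sets 17.9% were lower, and the median difference of the 43 genes was -0.17. After normalization 4 were lower and 2 were higher, with a median of -0.0011, where 5.87% of all probe sets were lower and 5.71% higher. The 4 that were lower in both forms were Rsph9 of the radial spoke, Dnaic1 of the outer dynein arm, Iqcg of the dynein regulatory complex, and 1110017D15Rik. Iqcg had 5.59 and 5.58 on the ethanol arrays, against 6.26 and 6.03 on the control arrays (-0.56, and -0.37 after normalization). Dnaic1 had 5.42 and 5.36 on the ethanol arrays and 5.90 and 5.77 on the control arrays (-0.45, and -0.27 after normalization), and both genes had an adjusted p of 0.171 in limma. The 2 that were higher after normalization were Rsph4a, also of the radial spoke, and Stoml3. GTTGCC was present in the windows of 18 of 39 genes of this set (46.2%), against 14.1% of all genes.

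No meningeal gene was past the limits in either form. Col1a1 and Col1a2, the chains of fibrillar type I collagen, were at -0.14 and -0.24 as deposited. Col1a1 had 7.14 and 7.13 on the ethanol arrays, against 7.37 and 7.18 on the control arrays. Col1a2 had 6.54 on ethanol 2 and 6.82 on ethanol 4, against 6.88 and 6.95 on the control arrays, so the chains differed in which pool was low, and after normalization both overlapped between the groups (0.05 and -0.03). Without ethanol 4 the difference of Col1a2 was -0.38 as deposited and -0.16 after normalization. Without ethanol 2 these were -0.09 and 0.09. Col3a1, the type III chain, had 5.63 and 5.69 on the ethanol arrays and 5.58 and 5.64 on the control arrays, below the array medians. Its difference of 0.05 was 0.23 after normalization (limma, unadjusted p = 0.0564, adjusted p = 0.376), with the ethanol arrays above both controls.

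The remaining meningeal genes were short of both the fold and the p limit in either form. Dcn, decorin, had 10.04 and 10.08 on the ethanol arrays, against 10.12 and 10.09 on the control arrays, a difference of -0.04 that turned to 0.04 after normalization. Lum, lumican, had 5.85 and 5.76 on the ethanol arrays and 5.96 and 6.05 on the control arrays (-0.20, and -0.01 after normalization). Ptgds, the prostaglandin D synthase of the leptomeninges that is also made by oligodendrocytes and choroid plexus, had 12.10 and 12.20 on the ethanol arrays, against 12.25 and 12.03 on the control arrays. Both control arrays lay outside the ethanol arrays, 1 on either side, and the difference was 0.01. Slc6a20a, a proline transporter of the meninges, had 9.44 on ethanol 2 and 9.70 on ethanol 4, against 9.63 and 9.65 on the control arrays, with overlap and a difference of -0.07. The 7 genes had a median of -0.07 as deposited and 0.04 after normalization.

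Of 38 further meningeal and fibroblast genes measured from 39 names, 1 was past the limits and higher and 4 were lower as deposited (2.23% and 17.9% of all probe sets), and 2 were higher and 1 lower after normalization (5.71% and 5.87%). Slc6a13, a GABA and taurine transporter of leptomeningeal cells, was the gene that was higher in both forms. It had 8.31 and 8.48 on the ethanol arrays, against 8.05 and 8.03 on the control arrays. Slc6a13 differed by 0.35 as deposited (standard error 0.10, limma, adjusted p = 0.180) and by 0.49 after normalization (standard error 0.09, adjusted p = 0.218). Tbx18, a T-box factor of mural cells and meninges, was lower in both forms (-0.48 and -0.31), and Slc22a6, an organic anion transporter, was lower as deposited only (-0.39 and -0.18). Igf2, a growth factor of meninges and choroid plexus, had 8.88 on ethanol 2 and 9.18 on ethanol 4, against 9.12 and 9.02 on the control arrays, so the groups overlapped.

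**Figure D3:**
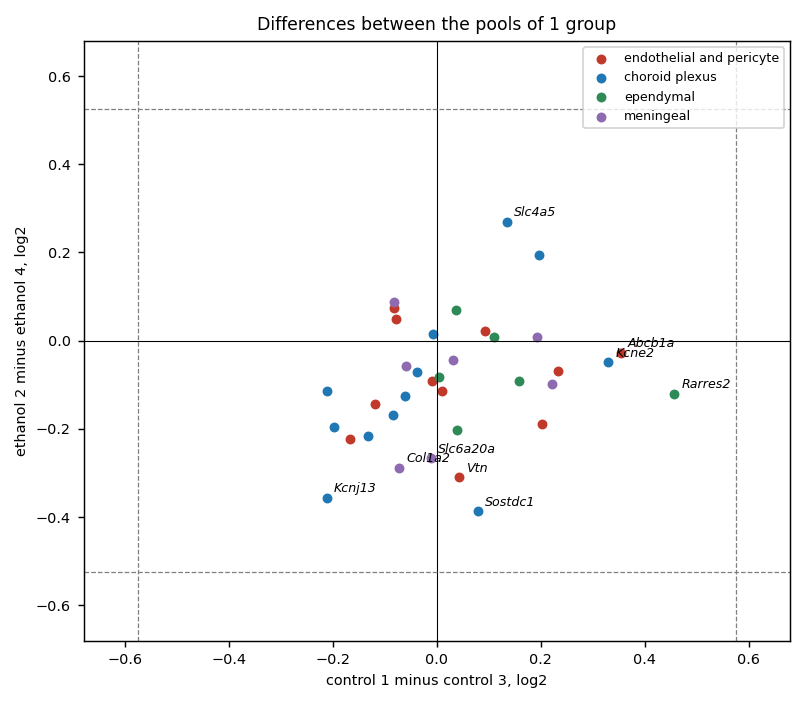
Difference between the 2 control pools (horizontal axis, control 1 minus control 3, log2) and between the 2 ethanol pools (vertical axis, ethanol 2 minus ethanol 4, log2) for the 36 genes, coloured by class, with names where either exceeds 0.25. Dashed lines mark the size below which 95% of all probe sets lie, 0.525 for the ethanol pools and 0.576 for the control pools, and every gene lies inside them.

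The pools of 1 group differed in these genes by sizes near those of other probe sets. Ethanol 2 and ethanol 4 were apart by a median size of 0.11 over the 36 genes and 0.12 over the whole table, and control 1 and control 3 by 0.09 and 0.12. Between the ethanol pools the widest differences were those of Sostdc1 (-0.39), Kcnj13 (-0.36), Vtn (-0.31), Col1a2 (-0.29) and Slc4a5 (0.27). Between the control pools they were those of Rarres2 (0.46), Abcb1a (0.35) and Kcne2 (0.33). No member came near the difference of Gh (-5.73) or Prl (-5.54) between the ethanol pools. Choroid plexus genes had a median size of 0.18 between the ethanol pools, the highest of the 4 classes, and 0.13 between the control pools. Within the choroid plexus the ethanol pools did not all differ in 1 direction. Ttr was nearly equal in the pools of each group, Sostdc1 and Kcnj13 were lower on ethanol 2, and Slc4a5 and Otx2 were higher there. All 6 ependymal genes were higher on control 1 than on control 3, with a median of 0.07, against 0.06 over all probe sets. Among the further genes, Art3 of pericytes was lower on ethanol 2 than on ethanol 4 by a log2 difference of -0.62, and on control 1 Lamc1 of the vessel basement membrane was higher than on control 3 by 0.71 and Car12 of the choroid plexus by 0.49.

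Blood left in the vessels can also differ between pools. Of the red cell genes listed, Alas2 and Slc4a1 were measured. Alas2 had 7.16 and 6.98 on the ethanol arrays, against 7.25 and 7.22 on the control arrays, and neither gene was past the limits in either form. In the markers of astrocytes and microglia, none of 7 and none of 8 was past the limits in either form, and of 6 oligodendrocyte markers Cnp was lower in both (-0.28 and -0.29). The pineal is another tissue that dissection can leave or take. As deposited its genes had list medians of 5.13 and 5.14 on the ethanol arrays and 5.35 and 5.35 on the control arrays. After normalization these medians were 5.24 and 5.18, against 5.24 and 5.31, and the median difference was -0.04. Otx1 was lower past the limits as deposited, and no pineal gene was past them after normalization. Tph1 and Aanat, the pineal enzymes of melatonin synthesis, were at 5.71 or below on all arrays. With the treatment entry as the grouping, no member was past the limits in either direction, where 1.60% of all probe sets were.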

How the data were processed

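RNA of whole brains, in 4 pools, was measured on Mouse Gene 1.0 ST arrays. By their methods the authors used RMA with a GC adjustment and quantile normalization in Partek Genomics Suite (version 6.6 in the submitters' processing notes, an earlier one in the methods), and deposited log2 values. The array medians of these values differ, so the comparison was run on them and on values quantile-normalized once more in limma. No probe set was left out as dim, and precision is limited by the number of arrays. Gene names are those of the platform annotation, which gives 1 symbol to 21789 probe sets.

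Each of 35556 probe sets was fitted with limma (version 3.58.1, R 4.3.3; 2 residual and 2.57 prior degrees of freedom), with Benjamini-Hochberg adjustment over the whole table. The procedure was tested on simulated arrays. The labels do not say which pools hold littermates, so the fit has no block, and each possible pairing was an alternative. The members, the further lists and the limits were chosen with earlier results of these data known. Named genes are all members, and of each further list those with the smallest p or the widest differences between pools. Other further genes were named after their values were seen. Of the members 26 had a RefSeq promoter window, and 2 were not searched.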

Additional observations from a re-analysis of the deposited data

How the results depend on the processing

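Values are given in the order endothelial and pericyte, choroid plexus, ependymal and meningeal wherever 4 stand together. After quantile normalization the counts of lower genes were 0, 0, 0 and 0, the endothelial and pericyte count of higher genes was 1, and the medians were 0.05, -0.0541, 0.0151 and 0.0397. Centring each array on its median put the median of all probe sets at 0.0658. The higher counts were then 2, 1, 0 and 1 (Abcb1a, Pdgfrb, Tmem72 and Col3a1), and the lower counts were 0 in all classes. These are 4 of the 36 members, where 13% of all probe sets were past the limits in either direction. The class medians were 0.13, 0.0298, 0.0431 and 0.14. Grouped by the treatment entry, the lower counts were 0 in all classes and the plexus and ependymal medians were -0.11 and 0.0434. Tek turned to 0.0567 and Dynlrb2 to 0.0540, and with normalization as well, an alternative chosen after seeing the data, to 0.0202 and 0.0558. The methods' ANOVA per probe set left 1 lower endothelial, 1 lower plexus and 1 lower ependymal gene, where 8.87% of all probe sets were past the limits. With 1 array left out, the medians ran from -0.18 to 0.01, -0.20 to -0.11, -0.23 to -0.13 and -0.13 to -0.02. The median of all probe sets ran from -0.18 to -0.11 in these fits. A single array left in a group is then taken to have the spread of the other group. At 1.5-fold, and at an adjusted p of 0.05 in limma, 0 genes were lower in each class, where 5 members had an unadjusted p under 0.05. Of all probe sets, 4.76% were past the limits at 1.5-fold and 0.00281% at the adjusted p. With control 1 paired with ethanol 2 as a replicate block, 2 endothelial, 1 plexus and 1 ependymal genes were lower. With the other pairing as a replicate block, 1 endothelial, 1 plexus and 2 ependymal genes were lower. Of all probe sets, 19.7% were past the limits with the first pairing and 19% with the other. Between ethanol 2 and control 3 alone, the arrays on which all labels agree, the plexus median was -0.21. Allowing an intensity trend changed no count or call. Leaving out probe sets with a mean log2 under 5 removed no member and using other probe sets could change nothing, since each member has 1, so neither tests stability. Of the 36 genes, 11 had a mean log2 under 6, where little signal stands over background.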
